A study of Mus musculus with 4 samples.

Results

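SR proteins and heterogeneous nuclear ribonucleoproteins (hnRNPs) are the RNA-binding proteins that steer the choice of splice sites, and their transcripts were followed here across 4 RNA-seq libraries of mouse T-helper 17 (Th17) cells. The members are the protein-coding genes whose GENCODE mouse symbol begins with Srsf or Hnrnp, together with Tra2a, Tra2b, Ptbp1, Ptbp2, Ptbp3, U2af1, U2af2, Mbnl1, Mbnl2, Celf1 and Celf2. This rule gave 42 genes among the 50600 in the files, of which 21764 are protein-coding: 11 Srsf genes, 20 Hnrnp genes, 3 Ptbp genes and 2 each of the Tra2, U2af, Mbnl and Celf genes. Th17 cells are CD4 T cells that secrete interleukin 17. All 4 libraries belong to 1 group of primary cells from the C57BL/6NJ strain, they carry the marks 72 hr and sorted in their names, and the labels give them the same donor. Age is unknown and sex was not collected, and no second condition exists, so members are compared with each other and between replicates 1 to 4.

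SR proteins carry 1 or more RNA recognition motifs and a tail rich in arginine and serine, the RS domain. They usually bind purine-rich exonic enhancers, are phosphorylated on the serines of the tail, and draw the U1 and U2 particles to nearby splice sites. Many hnRNPs instead bind silencer elements and keep exons out, although the outcome depends on where they sit, and several hold arginine-glycine-glycine (RGG) repeats. In T cells, activation changes the exon choice of receptor and signalling genes, the CD45 gene Ptprc being the textbook case. SR and hnRNP genes also make transcripts with an alternative poison exon that are degraded, through which many of them limit their own level. Counts per gene do not separate such isoforms.

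Libraries held between 9382661 (replicate 3) and 34542693 (replicate 1) counted read pairs. Transcript abundances scaled to a fixed total per library (TPM) were computed from counts and the merged exon length in the files. All 7 Th17 and T-cell markers checked, Il17a, Il17f, Il23r, Ccr6, Rora, Cd4 and Cd3e, reached 1 TPM in every library. None of the 5 B-cell markers and none of the 5 myeloid markers did, with summed levels of 0.241 to 0.686 TPM and 1.03 to 2.70 TPM. Cd14 made up most of the myeloid sum, at 1.76, 2.55, 0.670 and 1.96 TPM in replicates 1 to 4. Ms4a1 was at 0 counts. Of 5 CD8 T-cell and natural killer markers, 1 reached 1 TPM in every library, Cd8b1 at 13.4 ± 1.96 TPM (SD, n = 4). Cd8a held 4 counts in all, and Ncr1 and Klrb1c held 0. Nothing in the labels ties the replicates to separate mice or cultures, so each p-value below covers the spread of these 4 libraries alone, which may be technical.

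The coding sequences show the features for which the protein classes are known, to differing degrees. They were taken from the GENCODE release 21 transcripts on mm10. An arginine codon next to a serine codon, in either order, was counted as a pair. At least 5 such pairs per 100 codons were found in 13 of 42 members, against 0.424% of 21697 protein-coding genes with a principal transcript, and at least 10 in 11 members, against 0.106%. Srsf2 and Srsf7 led with 23.5 and 23.1 pairs per 100 codons, followed by Srsf6 with 21.8 and Srsf4 with 21.6. Srsf9 was the Srsf gene with the fewest, 4.05 per 100 codons, below both Tra2 genes, which had 17.4 (Tra2b) and 14.2 (Tra2a), and below U2af1 with 6.28. The 60 bases with the most pairs are shown for 4 SR genes of high and low density, for Srsf12, the lowest-expressed member, and for U2af2. Capitals mark the codons that form arginine-serine pairs.
Srsf2: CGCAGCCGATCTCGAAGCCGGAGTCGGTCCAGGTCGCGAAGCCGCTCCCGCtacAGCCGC
Srsf1: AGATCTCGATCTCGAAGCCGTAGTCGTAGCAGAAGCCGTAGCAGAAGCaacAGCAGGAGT
Srsf10: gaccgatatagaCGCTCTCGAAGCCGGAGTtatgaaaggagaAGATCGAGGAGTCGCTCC
Srsf9: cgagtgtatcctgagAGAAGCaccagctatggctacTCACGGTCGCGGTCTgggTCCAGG
Srsf12: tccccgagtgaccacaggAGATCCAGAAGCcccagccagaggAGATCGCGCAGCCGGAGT
U2af2: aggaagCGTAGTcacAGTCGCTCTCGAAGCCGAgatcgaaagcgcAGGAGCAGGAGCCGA
In mm10 these lie within 1 exon each, at chr11:116852256-116852315 (minus strand) for Srsf2, chr11:88049469-88049528 (plus strand) for Srsf1, chr4:135863105-135863164 (plus strand) for Srsf10, chr5:115332594-115332653 (plus strand) for Srsf9, chr4:33226066-33226125 (plus strand) for Srsf12 and chr7:5066426-5066485 (plus strand) for U2af2. Srsf2 and Srsf1 had 17 pairs in the window, Srsf10 and U2af2 had 10, Srsf12 had 8 and Srsf9 had 6.

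Hnrnp genes had fewer pairs than any Srsf gene, from 0.274 per 100 codons in Hnrnpm to 2.64 in Hnrnpa2b1. They lay on both sides of the median over all coding genes, 0.721. At least 1 RGG tripeptide was encoded by 20 of 42 members, against 10.6% of coding genes. These were 14 Hnrnp genes and Srsf1, Srsf5, Srsf9, Srsf12, Tra2b and U2af1. The Srsf12 tripeptide rests on the chosen transcript, which starts 281 bases from the RefSeq start, and was not checked in others. The densest were Hnrnpa3 with 1.32 and Hnrnpa0 with 1.31 per 100 codons. No RGG was encoded by Hnrnpc, Hnrnpf, Hnrnph1, Hnrnph2, Hnrnpl or Hnrnpll, nor by any Ptbp, Mbnl or Celf gene. The windows with the most RGG codons, in capitals, are shown for Hnrnpu, Hnrnpk and Hnrnpa0, which differ in how closely the repeats are spaced.
Hnrnpu: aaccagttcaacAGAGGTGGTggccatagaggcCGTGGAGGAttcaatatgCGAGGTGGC
Hnrnpk: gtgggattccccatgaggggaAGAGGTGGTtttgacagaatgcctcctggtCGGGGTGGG
Hnrnpa0: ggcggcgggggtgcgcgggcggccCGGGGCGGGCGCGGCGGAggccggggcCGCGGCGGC
They lie at chr1:178330608-178330667 (minus strand) in Hnrnpu, chr13:58394621-58394680 (minus strand) in Hnrnpk and chr13:58127711-58127770 (minus strand) in Hnrnpa0.

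**Figure D1:**
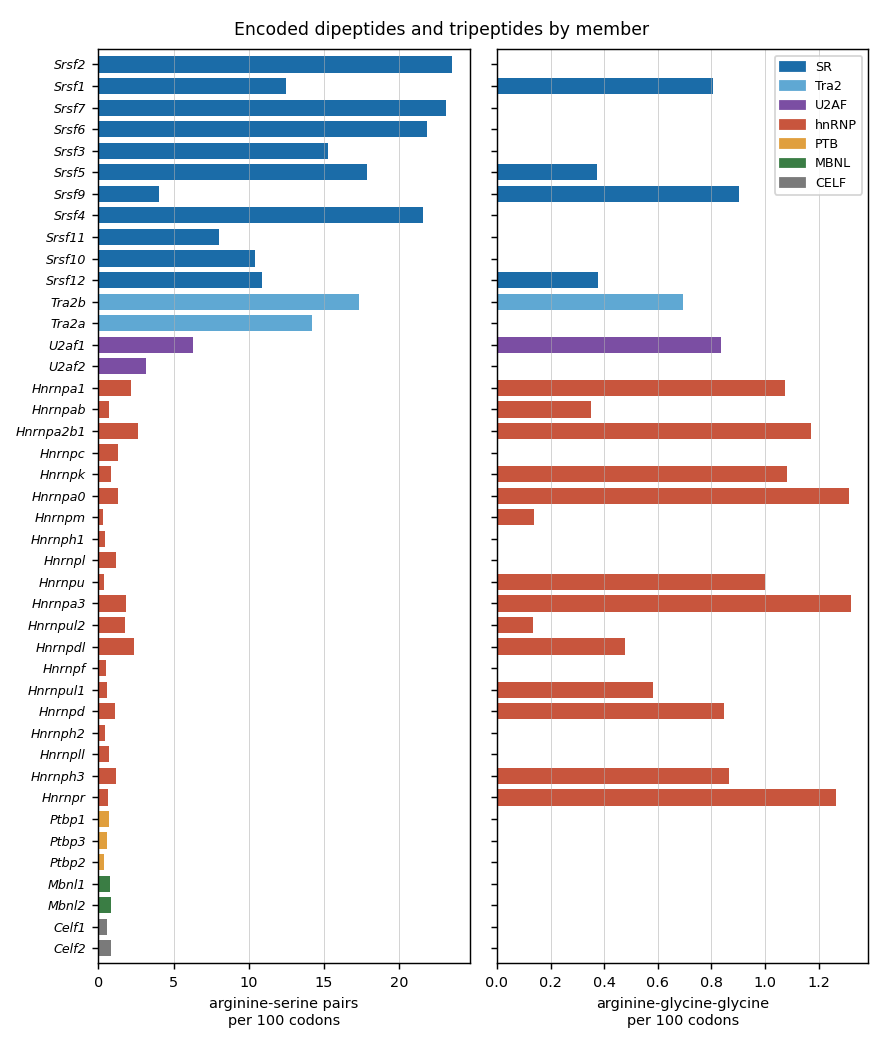
Arginine-serine pairs (left) and RGG tripeptides (right) per 100 codons of the principal coding transcript of each of the 42 members, coloured by family and ordered by mean TPM within a family. The Srsf and Tra2 genes carry most of the pairs, with Srsf9 lowest among them at 4.05, and RGG is most frequent in Hnrnpa3 and Hnrnpa0.

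Nearly all of these transcripts were abundant. Of 42 members, 41 reached 1 TPM in every library, 40 reached 10 TPM and 29 reached 100 TPM. The median member stood at 219 ± 11.4 TPM (SD over 4 libraries), against 30.2 TPM for the median of the 10696 protein-coding genes with a mean of at least 1 TPM. Of the members, 25 lay at or above the 90th percentile of those genes. Only Hnrnpr, Celf2, Ptbp2 and Srsf12 lay below their median. Together the members took 1.76%, 1.74%, 1.84% and 1.67% of all counts in replicates 1 to 4. Hnrnp genes accounted for 1.08% to 1.18% of counts and Srsf genes for 0.297% to 0.342%.

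The order of the levels is partly unresolved. Of 41 neighbouring members in the order of mean TPM, 14 had library ranges that did not overlap and 27 had ranges that did. Choice of length weighs more than the spread between libraries: the merged exons are a median of 1.67 times as long as the principal coding transcript, and 11.1 times as long for Celf2, 8.27 times for Hnrnpr and 4.73 times for Hnrnpa3. With the length of the principal transcript, the mean level of 14 members was over 1.5 times higher, up to 7.48 times for Celf2, and that of U2af1 fell to 0.629 of its value. Reads that map to several places were not counted, per the file headers. Of each member's 100-base stretches, taken along its longest coding transcript, the share also present in a gene elsewhere was over 10% in 8 members and 0 in 25. It was 49.5% in U2af1, 43.5% in Hnrnpf, 42.2% in Hnrnpa1, 27.5% in Hnrnpa3, 25.3% in Hnrnpk, 20.7% in Srsf3, 17.9% in Srsf5 and 13.05% in Tra2b, so the levels of these genes are uncertain and may be too low. Hnrnpm shared 24.9% of its exon bases with a neighbour on the same strand, where reads were not counted either.

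**Figure D2:**
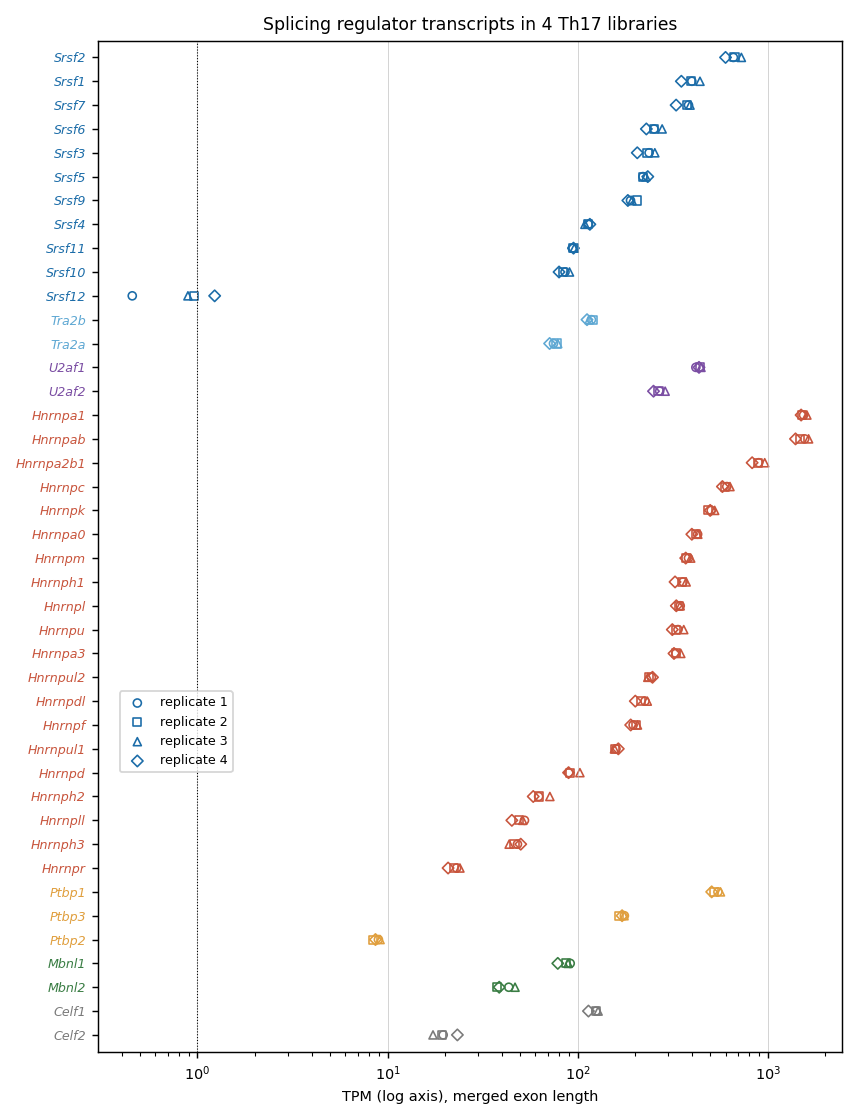
TPM on a log axis for the 42 members, with 1 symbol for each of replicates 1 to 4, coloured by family. Most members lie above 10 TPM with the 4 symbols close together, and Srsf12 alone lies around the dotted line at 1 TPM.

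Levels below are given for replicates 1, 2, 3 and 4 in that order, in TPM on merged exon length. Among the SR genes, Srsf2, which encodes the speckle protein also called SC35 (ENSMUSG00000034120.18, mm10 chr11:116849901-116853094, minus strand), was highest, with 659.8, 669, 727 and 600.1 TPM. Srsf1, the founding SR protein, had 399, 393, 440.2 and 351 TPM, and Srsf9, its shorter relative, had 189.8, 205, 193 and 184 TPM. Replicate 3 was highest and replicate 4 lowest for Srsf2 and Srsf1, and the ranges of Srsf1 and Srsf9 did not overlap. Srsf1 exceeded Srsf9 by 1.03 ± 0.12 (log2, SD, n = 4), and 71.2% of the shorter protein's residues were identical between them.

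Srsf3 and Srsf7 couple splicing to mRNA export as adaptors of the export receptor. Srsf3 had 238, 233, 255 and 206 TPM, and Srsf7 had 383, 377, 390.3 and 329.8 TPM. Srsf7 was the higher per merged length in every library, a difference of -0.67 ± 0.04 (log2, SD, n = 4) for Srsf3 minus Srsf7. That direction turned with transcript length, at 0.30 with the principal transcript and 0.37 with the longest, so which of the pair is more abundant per molecule is not settled.

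Srsf4, Srsf5 and Srsf6 share a tandem of RNA recognition motifs and long RS tails. Srsf5 had 221, 221, 229 and 234 TPM, Srsf4 114, 114, 109 and 116 TPM and Srsf6 252, 251, 278 and 230.0 TPM. Srsf6 peaked in replicate 3 with its minimum in replicate 4, whereas Srsf5 was highest in replicate 4 and Srsf4 was lowest in replicate 3. Srsf5 minus Srsf6 was -0.16 ± 0.13 (log2, SD, n = 4) and was the only one of the 20 pairs examined whose sign differed between libraries, being negative in replicates 1 to 3 and 0.02 in replicate 4. With the principal transcript length it was 0.77. Srsf4 minus Srsf6 was -1.15 ± 0.15 (log2, SD, n = 4).

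Srsf10, which acts as a repressor when its tail is dephosphorylated, had 85.8, 83.7, 90.6 and 79.9 TPM. Srsf12 is known as its nearest relative among the SR genes. Between the chosen transcripts, 29.5% of the shorter protein's residues were identical. The chosen Srsf12 transcript starts 281 bases from the RefSeq start, and other transcripts were not checked. This value is therefore no measure of how far the 2 proteins differ. Srsf12 (ENSMUSG00000054679.8, mm10 chr4:33208991-33233340, plus strand) rested on 15, 22, 8 and 34 counts, or 0.454, 0.965, 0.892 and 1.23 TPM. Replicate 1 was the lowest and replicate 4 the highest. Exact Poisson intervals (95%, counting error only) were 0.254 to 0.749 TPM in replicate 1 and 0.853 to 1.72 TPM in replicate 4, and those of replicates 2 and 3 overlapped both. Srsf10 minus Srsf12 was 5.53 ± 0.30 (log2(TPM + 1), SD, n = 4). The added pseudocount of 1 exceeds the Srsf12 level in replicates 1 to 3, so this difference understates the ratio. Without a pseudocount, the ratio of mean TPM was 96.0, and 167 with either transcript length. Srsf11, an RS-rich protein of the spliceosome, had 93.8, 95.1, 96.04 and 95.1 TPM, nearly level across libraries.

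The Tra2 genes encode relatives of the fly sex-determination factor Transformer 2 and bind GAA-rich exonic enhancers. Tra2b had 118, 121, 115 and 112 TPM, and Tra2a had 74.7, 77.4, 78.6 and 71.2 TPM. Replicate 4 was lowest for both genes, and their ranges did not overlap. Tra2b exceeded Tra2a by 0.62 ± 0.05 (log2, SD, n = 4) per merged length. The sign turned to -0.66 with either transcript length, since the merged exons of Tra2a are 3.86 times its principal transcript.

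U2AF recognises the end of the intron, the large subunit U2af2 through the polypyrimidine tract and the small subunit U2af1 through the AG dinucleotide. U2af2 had 270.3, 266, 289 and 251 TPM, and U2af1 had 419, 439.7, 446 and 435 TPM. U2af1 was higher in every library, but its exon length in the files, 974 bases, is shorter than its coding transcript, and 49.5% of its stretches have copies elsewhere. U2af2 minus U2af1 was -0.69 ± 0.08 (log2, SD, n = 4), and 0.39 with the principal transcript length.

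The hnRNP A/B genes were the most abundant. Hnrnpa1, which binds UAG-containing silencers and blocks exon inclusion (ENSMUSG00000046434.15, mm10 chr15:103240432-103244955, plus strand), had 1544, 1513, 1607 and 1499 TPM. Hnrnpab had 1565, 1471, 1641 and 1400.3 TPM. Hnrnpa2b1 had 897, 893, 964 and 828 TPM. All 3 peaked in replicate 3 with their minimum in replicate 4, and the ranges of Hnrnpa1 and Hnrnpab overlapped. Hnrnpa1 minus Hnrnpa2b1 was 0.78 ± 0.05 (log2, SD, n = 4) on merged exons, and it turned to -1.201 with the principal and -1.14 with the longest transcript. The merged length of Hnrnpa2b1 is 6584 bases, against 1662 for its principal transcript. Per principal transcript, Hnrnpa2b1 was the highest member, at 2396 ± 149.6 TPM (SD, n = 4), against 1041 ± 33.2 TPM for Hnrnpa1.

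Hnrnpa3 had 328, 330.5, 349 and 321 TPM, and Hnrnpa0, an intronless relative, had 428, 421, 429 and 399 TPM. Hnrnpa3 was lower than Hnrnpa0 in every library. Hnrnpa3 minus Hnrnpa0 was -0.33 ± 0.04 (log2, SD, n = 4), similar with the longest transcript and turned to 1.90 with the principal transcript. Hnrnpc, which binds uridine tracts as a tetramer, had 609, 599, 633 and 578 TPM.

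Hnrnpd, also called AUF1, binds AU-rich elements of unstable mRNAs such as those of cytokines. It had 89.9, 90.7, 103 and 89.6 TPM, and its neighbour Hnrnpdl had 226, 216, 233 and 201 TPM. Replicate 3 stood above the other libraries for Hnrnpd, which lay close to each other. Both genes lie on the minus strand of chromosome 5, at chr5:99955935-99978938 and chr5:100033577-100039664 (mm10), with 54.6 kb between them. Hnrnpd minus Hnrnpdl was -1.22 ± 0.08 (log2, SD, n = 4), with -1.91 and -1.92 for the principal and longest transcript lengths. Hnrnpab minus Hnrnpd, a related pair, was 4.01 ± 0.07 (log2, SD, n = 4), or 16.3 times in mean TPM.

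Hnrnph1, Hnrnph2, Hnrnpf and Hnrnph3 bind runs of guanines. Hnrnpf had 196, 202, 206 and 190.2 TPM. Hnrnph1 had 359, 353, 372 and 325 TPM, and Hnrnph2, the only member on the X chromosome (chrX:134601179-134607060, plus strand), had 62.4, 62.6, 71.5 and 58.4 TPM. The ranges of Hnrnph1 and Hnrnph2 were far apart, although 95.5% of the residues are identical, the closest of the 20 pairs, and Hnrnph1 exceeded Hnrnph2 by 2.45 ± 0.06 (log2, SD, n = 4). In mean TPM that was 5.53 times, 5.65 times with the principal and 12.2 times with the longest transcript length. Hnrnpf was below Hnrnph1 in every library, and Hnrnpf minus Hnrnph1 was -0.82 ± 0.04 (log2, SD, n = 4), and -1.71 and -1.74 with the principal and longest transcript lengths. However, 43.5% of the Hnrnpf stretches have copies elsewhere, against 2.28% for Hnrnph1, so the Hnrnpf level may be too low. Hnrnph3 had 48.3, 46.6, 43.6 and 50.2 TPM, lowest in replicate 3 and highest in replicate 4.

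Hnrnpl binds CA repeats, and Hnrnpll is a regulator of the alternative exons of the CD45 gene Ptprc in activated T cells. Hnrnpl had 347, 340.3, 346 and 331 TPM, and Hnrnpll had 52.5, 48.97, 51.5 and 45.1 TPM. Hnrnpl exceeded Hnrnpll in every library by 2.76 ± 0.06 (log2, SD, n = 4), or 6.89 times in mean TPM, and by 5.11 and 4.08 times with the principal and longest transcript lengths. Ptprc itself stood at 188 ± 4.24 TPM (SD, n = 4).

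Hnrnpu, a nuclear scaffold protein that binds chromatin-associated RNA, had 337, 331, 362 and 315 TPM. Its relative Hnrnpul1 had 159, 158, 156 and 164 TPM, and Hnrnpul2 had 244, 237, 234 and 248 TPM. Replicate 3 was highest for Hnrnpu and lowest for the other two. Hnrnpu minus Hnrnpul1 was 1.07 ± 0.11 (log2, SD, n = 4), and 0.48 with either transcript length. Hnrnpul1 minus Hnrnpul2 was -0.59 ± 0.02 (log2, SD, n = 4), the steadiest of the 20 pairs between libraries, yet it turned to 0.43 with either transcript length.

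Hnrnpk, which binds cytidine-rich RNA, had 504, 487, 526 and 498 TPM. Hnrnpm had 383, 372, 393 and 370.5 TPM. Hnrnpr had 23.1, 22.4, 24.04 and 20.8 TPM on a merged length of 22199 bases. Replicate 3 was highest for all 3. Per principal transcript Hnrnpr stood at 126 ± 7.597 TPM (SD, n = 4).

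The polypyrimidine tract proteins repress exons flanked by pyrimidine-rich introns. Ptbp1, the form of most dividing cells (ENSMUSG00000006498.16, mm10 chr10:79854427-79864771, plus strand), had 547, 522, 564 and 507 TPM. Ptbp3, known from blood cells, had 176, 164, 176 and 171 TPM, and Ptbp2, known from neurons (ENSMUSG00000028134.11, mm10 chr3:119718742-119784466, minus strand), had 8.96, 8.41, 9.14 and 8.64 TPM. The 3 ranges did not overlap. Ptbp1 exceeded Ptbp2 by 5.78 ± 0.04 (log2(TPM + 1), SD, n = 4). Without a pseudocount, the ratio of mean TPM was 60.9, and 34.0 and 37.5 with the principal and longest transcript lengths. Ptbp1 exceeded Ptbp3 by 1.63 ± 0.05 (log2, SD, n = 4), with 3.12 times in mean TPM.

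The promoters of Ptbp1 and Ptbp2, 250 bases before to 50 after the start, are shown from RefSeq (GRCm38.p6) because this paralogue pair was far apart in level with both members above the counting floor. Capitals mark matches to the CCAAT box, to the GC box GGGCGG and to the E box CACGTG, on either strand.
Ptbp1: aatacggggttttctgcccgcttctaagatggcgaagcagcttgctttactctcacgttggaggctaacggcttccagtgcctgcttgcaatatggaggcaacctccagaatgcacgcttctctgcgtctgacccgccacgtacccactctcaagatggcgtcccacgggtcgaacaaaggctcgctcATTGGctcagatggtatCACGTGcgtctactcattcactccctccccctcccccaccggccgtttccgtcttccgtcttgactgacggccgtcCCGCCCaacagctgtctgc
Ptbp2: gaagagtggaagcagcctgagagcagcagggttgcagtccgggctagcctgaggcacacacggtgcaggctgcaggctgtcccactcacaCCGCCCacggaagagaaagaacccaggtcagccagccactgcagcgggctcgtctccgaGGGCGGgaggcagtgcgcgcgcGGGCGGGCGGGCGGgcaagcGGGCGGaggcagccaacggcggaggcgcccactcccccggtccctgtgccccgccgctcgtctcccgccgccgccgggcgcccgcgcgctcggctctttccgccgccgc
The windows are chr10:79854182-79854481 (plus strand) for Ptbp1 and chr3:119783339-119783638 (minus strand) for Ptbp2. Ptbp1 has each of the 3 motifs, and Ptbp2 has GGGCGG only. RefSeq promoters were matched for 38 of 42 members, and each motif was searched on both strands. GGGCGG was in 32 of 38 member promoters, against 48.7% of all 16461 promoters. CCAAT was in 21 of 38, against 38.5%, and TATAAA in 4 of 38 (Hnrnpab, Hnrnpm, Srsf2 and Srsf3), against 12.9%. CACGTG, which contains no other motif searched, was in 5 of 38 (Hnrnpa3, Hnrnpd, Hnrnph2, Hnrnpm and Ptbp1), against 8.11%. The Hnrnpm window belongs to a RefSeq start 1402 bases from the start of its principal transcript. The median GC content was 68.5% in member promoters, against 57.0% in all. The observed over expected CpG ratio was 0.961, against 0.602. Matches are letters in these windows and not measured sites.

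MBNL and CELF proteins often act in opposite directions on the same exons, MBNL through YGCY elements and CELF through GU-rich ones. Mbnl1 had 91.4, 86.7, 89.1 and 78.7 TPM, and Mbnl2 had 43.4, 37.7, 46.9 and 38.7 TPM. Mbnl1 was highest in replicate 1 and Mbnl2 in replicate 3, with ranges apart. Mbnl1 exceeded Mbnl2 by 1.04 ± 0.11 (log2, SD, n = 4), and by 6.87 times with either transcript length, against 2.08 times on merged exons. Celf2 had 19.6, 19.4, 17.3 and 23.3 TPM, and Celf1 had 125, 124, 128 and 114 TPM. Celf2 was highest in replicate 4 and lowest in replicate 3, the reverse of Celf1. Celf2 minus Celf1 was -2.57 ± 0.24 (log2, SD, n = 4). It depended on the length used, being -1.17 with the longest transcript and 0.030 with the principal one, where the SD was 0.25 and the sign differed between libraries. Celf2 spans chr2:6539694-7509563 on the minus strand (mm10) with 25884 bases of merged exons, against 2338 bases for its principal transcript.

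Regulators of the same kinds known from brain, muscle and epithelium were near the floor. Of 19 such genes, 2 reached 1 TPM in every library, Khdrbs3 with 4.98 ± 1.00 TPM and Rbfox2 with 2.98 ± 0.33 TPM (SD, n = 4). The next highest was Celf4, at 0.687 ± 0.334 TPM. The other CELF paralogues Celf3, Celf5 and Celf6 held 2, 80 and 5 counts over all libraries, and Rbfox3, Nova1, Elavl4, Esrp1 and Srrm4 held none. Mbnl3, the remaining MBNL gene, had 11.1 ± 1.88 TPM.

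Of the 20 pairs, 19 had the same sign in all 4 libraries. For each of these the exact sign-flip permutation test gave p = 0.125 (both tails), the smallest 4 libraries allow, and 0.132 after Benjamini-Hochberg adjustment over 20 pairs. Srsf5 minus Srsf6 gave p = 0.25 in the same exact test, adjusted 0.25. This test cannot reach 0.05 with 4 libraries. The SDs of the differences ran from 0.02 to 0.30. In 12 pairs the direction was the same under merged exons, principal and longest transcript. The other 8 were those of Srsf3 and Srsf7, Srsf5 and Srsf6, Tra2b and Tra2a, Hnrnpa1 and Hnrnpa2b1, Hnrnpa3 and Hnrnpa0, Hnrnpul1 and Hnrnpul2, U2af2 and U2af1, and Celf2 and Celf1.

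**Figure D3:**
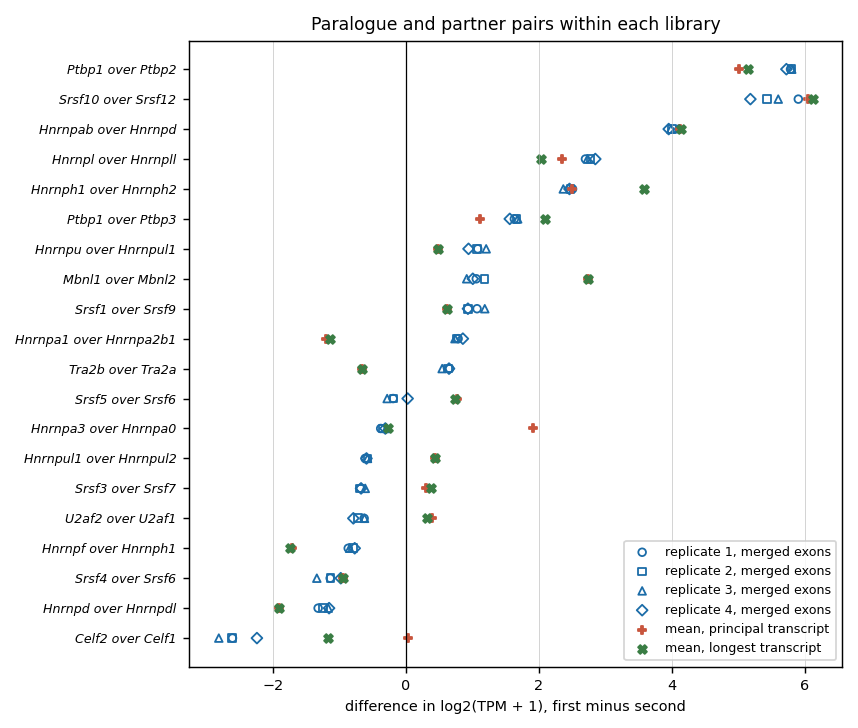
Difference in log2(TPM + 1), first gene minus second, for the 20 pairs, with open blue symbols for replicates 1 to 4 on merged exon length and filled symbols for the mean with transcript lengths. The Ptbp1 and Ptbp2 pair and the Srsf10 and Srsf12 pair lie farthest to the right, and 8 pairs have a filled symbol on the other side of 0.

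The next question was whether any member varied between libraries beyond genes of like abundance. All 42 members passed the low-count filter, among 12156 genes tested. In edgeR's quasi-dispersion test at an adjusted p of 0.05, 0 of 42 members were called, against 0.00823% of all tested genes (1 gene). The trend and spread this test uses were fitted to the same genes, so a gene not called is not thereby shown to be stable. At an unadjusted p under 0.05, 0 members and 596 of all genes passed, and among 103 genes that DESeq2 marked as dispersion outliers 0 were members. The smallest unadjusted p was 0.0593, for Celf2, whose adjusted p was 0.99. Most members did vary beyond counting error. A Poisson deviance test called 35 of 42, against 50.9% of all tested genes. Among genes with a mean of at least 100 CPM (counts scaled to the same library total), it called 31 of 36 members, against 81.4%, so the members' share lies near that of other abundant genes. Without replicate 4, it called 25 of 42 members and 3037 of 12145 genes, and the quasi-dispersion test called 20 genes, 0 of them members. The 7 not called with all libraries were Hnrnpul1, Srsf11, Srsf4, Hnrnpul2, U2af1, Ptbp2 and Hnrnph3.

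The median coefficient of variation (CV) of TMM-normalised CPM was 5.54% over members, against 7.91% over all tested genes. Abundance moves with this value: above 100 CPM the medians were 5.54% over 36 members and 5.17% over the other genes. The largest CVs belonged to Srsf12 (36.2%), Celf2 (11.7%), Mbnl2 (10.8%), Srsf1 (9.98%) and Hnrnph2 (9.52%). The smallest were those of Hnrnpul1 (1.32%), Srsf11 (1.70%) and Srsf4 (1.72%). Srsf12 is also the member with the fewest counts.

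**Figure D4:**
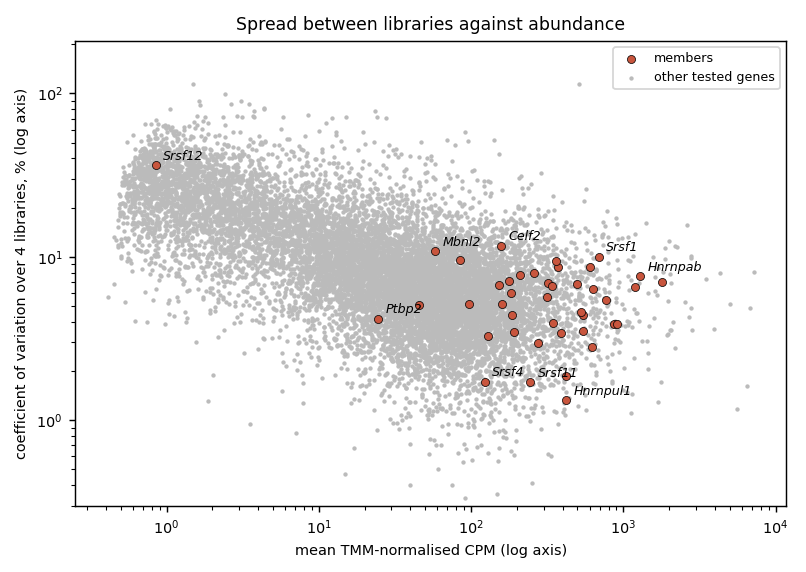
Coefficient of variation over 4 libraries against mean CPM, both on log axes, for the 42 members (red) and the other tested genes (grey). Members lie within the grey cloud at their abundance, from Hnrnpul1 at 1.32% to Srsf12 at 36.2%.

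The members' deviations from library to library ran largely together. The median difference of members from the mean of the other 3 libraries was 0.10 in replicate 3 on the log2(CPM + 1) scale, and in replicate 4 the difference was -0.11. In replicates 1 and 2 the medians were 0.01 and -0.01. The median over all tested genes was within 0.002 of 0 in each library, which the TMM normalisation largely sets. In replicates 3 and 4 the medians were 0.10 and -0.09 over core spliceosome genes and 0.10 and -0.05 over other regulators. They were 0.07 and -0.01 over SR-related genes, and -0.02 and 0.01 over genes for SR kinases, phosphatase and import. Of 42 members, 25 had their maximum in replicate 3 and their minimum in replicate 4, against 20.6% of all tested genes and 38.1% of those above 100 CPM. The opposite order was seen in 5 members (Celf2, Hnrnph3, Hnrnpul1, Hnrnpul2 and Srsf4), against 20.5% and 16.3%. This pattern was looked for after the values were seen.

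The largest shifts in replicate 4 downward were those of Srsf3 (-0.25), Srsf1 (-0.24) and Srsf7 (-0.23). In CPM, Srsf3 was at 369, 364, 402 and 319 in replicates 1 to 4, a 1.26-fold range, and Srsf1 at 692, 686, 776 and 608, a 1.28-fold range. Celf2 was at 154, 153, 139 and 183, a 1.32-fold range in the other direction. Thus no member except Srsf12 (2.70-fold) differed by more than 1.32-fold between its extreme libraries. The order of the 25 members was also that of 21 of 41 core spliceosome genes, 15 of 33 other regulators and 4 of 18 SR-related genes, with 1, 2 and 3 genes in the opposite order. Among 11 genes for SR kinases, phosphatase and import it was that of 1 of 10 tested, with 3 in the opposite order. No difference between these lists was tested. Replicate 3 is also the shallowest library, and the part of depth in these shifts was not tested.

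**Figure D5:**
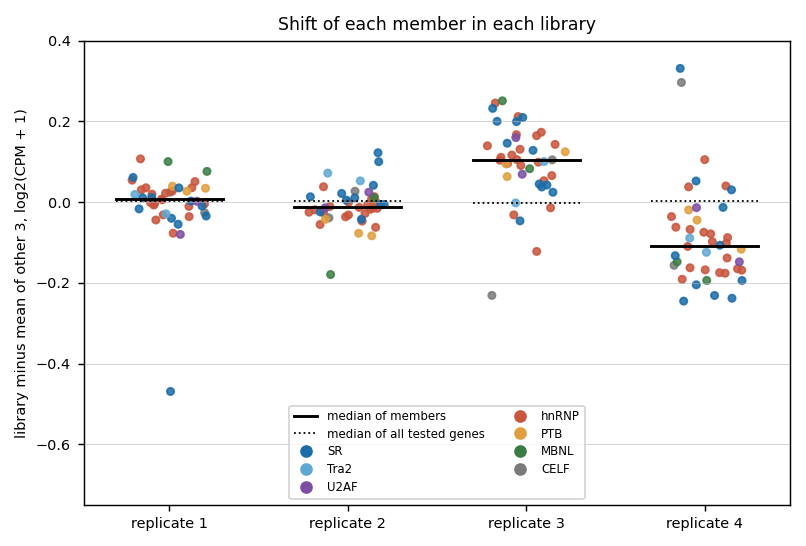
Each point is 1 member in 1 library, as its log2(CPM + 1) minus the mean of the other 3 libraries, coloured by family; solid bars are medians of members and dotted bars medians of all tested genes. The members' median is 0.10 in replicate 3 and -0.11 in replicate 4, with Celf2 on the opposite side in both.

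The enzymes that act on SR proteins were also expressed. SR kinases phosphorylate RS tails in the cytoplasm (the SRPK genes) and the nucleus (the CLK genes). Of 11 genes for kinases, phosphatase and import, 10 reached 1 TPM in every library and Srpk3, known from muscle, held 0 counts. Srpk1 stood at 70.5 ± 1.28 TPM and Srpk2 at 9.03 ± 0.536 TPM. The CLK genes Clk1, Clk3, Clk2 and Clk4 had 56.8 ± 1.27, 53.98 ± 5.10, 37.2 ± 0.967 and 26.02 ± 1.199 TPM. Prpf4b and Dyrk1a had 97.3 ± 5.08 and 34.2 ± 2.24 TPM, the transportin gene Tnpo3, which imports phosphorylated SR proteins, 55.7 ± 3.42 TPM, and the phosphatase catalytic gene Ppp1ca 1447 ± 37.8 TPM (SD, n = 4 each). The median of this list was 51.8 ± 1.71 TPM (SD over libraries), against 219 ± 11.4 TPM for the members.

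All 41 core spliceosome genes exceeded 10 TPM in every library, with a median of 124.9 ± 4.82 TPM, and Snrpb (610.1 ± 54.8 TPM), Snrpd1 (462 ± 18.2 TPM) and Sf3b2 (451 ± 14.5 TPM) were highest. All 18 SR-related genes reached 1 TPM, led by Srrm2 (296 ± 5.98 TPM), Rnps1 (217 ± 6.52 TPM) and Srrm1 (162 ± 3.97 TPM). All 33 other RNA-binding regulators did too, led by Ybx1 (1401 ± 45.95 TPM), Pcbp1 (927 ± 29.4 TPM) and Pcbp2 (719 ± 13.9 TPM). Genes known for alternative exons in T cells were also expressed: Malt1 at 374 ± 24.2 TPM, Cd44 at 162 ± 12.8 TPM, Fyn at 124 ± 3.78 TPM, Map2k7 at 46.9 ± 1.39 TPM and Traf3 at 42.7 ± 2.03 TPM (SD, n = 4 each). These are gene totals and say nothing of which exons were used.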

How the data were processed

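RNA was sequenced in 4 libraries of mouse Th17 cells. Each deposited file holds raw counts of read pairs per gene, which the authors made, per the file headers, with featureCounts 1.4.6-p4 on GENCODE mouse release 13 exons (both mates mapped, reverse-stranded setting 2, no multi-mapping or multi-overlap reads). Its input name points to STAR (version not given in the sources used here). Per the labels, the build is mm10. The assay label reads total RNA, while the linked protocol is named for poly(A) RNA. Symbols came from GENCODE release 21 (50376 of 50600 identifiers matched), and the unmatched genes stayed in the library totals. The authors deposited no TPM, so these were derived by dividing counts by the merged exon length in the files.

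Members, lists and pairs were chosen with earlier results of these data known. The text gives all members, and of other lists the 3 highest genes (all genes of the kinase and T-cell target lists, and of the tissue-restricted list those above the floor or at 0); 1 gene is not reported here. With 1 group, edgeR 4.0.16 (R 4.3.3) was fitted with an intercept alone after TMM and filterByExpr. Quasi-dispersion over its trend was tested against the F distribution and Poisson deviance against chi-square, with Benjamini-Hochberg adjustment over 12156 genes at 0.05. The prior degrees of freedom were 4.77, the common biological CV was 9.13%, and both tests were tried on simulated data. Pairs used log2(TPM + 1), with a pseudocount of 1, and an exact sign-flip test. Residue identity came from global alignment (biopython 1.88) of translated principal transcripts. Alternatives were DESeq2 1.42.0 size factors and dispersion outliers, other filters, a pseudocount of 0.1, CPM, TPM over protein-coding genes, each library left out and, added after the data were seen, transcript lengths. No protein table was used here.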

Additional observations from a re-analysis of the deposited data

Results flagged for a closer look

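Of 62 values screened over the 4 libraries, the TPM of 42 members and the differences of 20 pairs, 1 had a library far from the others. Hnrnpd, the AU-rich element binding protein AUF1, stood at 102.8 TPM in replicate 3, against 89.9, 90.7 and 89.6 TPM in replicates 1, 2 and 4. The gap to the nearest library was 0.919 of the whole range, above Dixon's 95% critical value for 4 samples. Chance alone flags about 1 in 20 such groups. Hnrnpd was among the 25 members with their maximum in replicate 3 and minimum in replicate 4, and it was not called by the quasi-dispersion test (edgeR, adjusted p = 0.99).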

How the results depend on the processing

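No count over the members moved by more than 1.5 times under any alternative run. The members called variable stayed at 0 with DESeq2 size factors, a mean count of at least 50, no filter and each library left out, although the genes called overall came to 5, 126 and 20 with the count filter, without a filter and without replicate 4. Members beyond counting error were 34 or 35, and 25 without replicate 4, where 3037 of all 12145 genes were called. The median CV ran from 4.13% to 6.74% over libraries left out. The 25 members highest in replicate 3 and lowest in replicate 4 were 24 in TPM. With the principal transcript length (chosen after seeing the data), 8 pairs turned round, in log2: Srsf3 minus Srsf7 0.30, Srsf5 minus Srsf6 0.77, Tra2b minus Tra2a -0.66, Hnrnpa1 minus Hnrnpa2b1 -1.20, Hnrnpa3 minus Hnrnpa0 1.90, Hnrnpul1 minus Hnrnpul2 0.43, U2af2 minus U2af1 0.39 and Celf2 minus Celf1 0.030. With the longest transcript 6 did: 0.37, 0.74, -0.66, -1.14, 0.43 and 0.32 for the first 4, the Hnrnpul and the U2af pairs. In CPM without length 4 did: 0.49 for Srsf3 minus Srsf7, -0.99 for Hnrnpa1 minus Hnrnpa2b1, 0.67 for Hnrnpa3 minus Hnrnpa0 and 1.38 for U2af2 minus U2af1. The length alone differs between these settings. Pseudocount and left-out libraries turned no pair.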

Other observations

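Transcripts with poison exons are removed by nonsense-mediated decay, and all 10 genes of that pathway that were checked exceeded 10 TPM in every library, with a median of 43.6 ± 1.48 TPM (SD over 4 libraries). Upf1, its helicase, was highest at 152 ± 6.74 TPM (SD, n = 4), followed by Smg5 at 89.2 ± 5.39 TPM. The median CV of these genes was 3.66%, against 5.54% for the splicing regulators and 7.91% for all tested genes. Abundance moves with the CV, whose median was 5.17% over genes of at least 100 CPM and 9.07% over those under it. No genes matched in abundance to these 10 were compared. Of the 10 genes, 4 had their maximum in replicate 3 and minimum in replicate 4, against 20.6% of all tested genes and 38.1% of those above 100 CPM, and 0 had the opposite order, against 20.5% and 16.3%.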
